A study of Arabidopsis thaliana with 21 samples.

Results

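The genes IAA1 (AT4G14560), IAA2 (AT3G23030), IAA3 (AT1G04240), IAA4 (AT5G43700), IAA5 (AT1G15580), IAA6 (AT1G52830) and IAA19 (AT3G15540) belong to one clade of the Aux/IAA family of transcriptional repressors of Arabidopsis thaliana. They were chosen by name, with earlier results of these data known, and the reads of all transcripts of a locus were summed. The 7 loci are 7 of the 27586 loci measured, and each of the 7 passed the filter on low counts that kept 19809 loci for the tests. IAA without a number stands here for the hormone indole-3-acetic acid, and IAA with a number for a gene.

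Aux/IAA proteins hold auxin-responsive genes down: they bind the activating auxin response factors (ARFs) and bring TOPLESS co-repressors to their target genes. Auxin joins an Aux/IAA protein to a TIR1/AFB F-box receptor, the repressor is degraded, and transcription starts. Many Aux/IAA genes are themselves targets of ARFs, so that auxin raises the transcripts of its own repressors within minutes, a feedback for which this clade is a textbook case. In roots, IAA1 is known from a dominant allele, axr5, that makes roots auxin-resistant, the IAA2 promoter serves as a reporter of auxin response, and IAA3 (SHY2) acts where dividing cells pass into differentiation. IAA4 was among the first auxin-induced transcripts found in this plant. IAA6 is also known as SHY1 and IAA19 as MSG2, a regulator of tropic growth, and IAA5, IAA6 and IAA19 act together in drought tolerance.

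RNA was sequenced from root tips of 1 to 2 mm, 50 tips per library, of plants grown for 5 days. There were 7 groups of 3 libraries, which the labels call biological replicates. In a first experiment the wild type Col-0 received for 20 min either 10 nM IAA, 10 µM PEO-IAA or mock (ethanol). PEO-IAA is an IAA with a phenyl ketone side chain next to the acid group and is known as an antagonist that occupies the TIR1/AFB pocket. In a heat experiment, HS::AXR3-1 and Col-0 both had 40 min at 37 °C and 80 min of recovery. In an estradiol experiment, XVE>>AXR3-1 and Col-0 both had 5 µM estradiol for 2 h. Both lines are in the Col-0 background and express AXR3-1, a stabilized IAA17 that auxin removes poorly. HS::AXR3-1 is driven by a heat shock promoter. XVE>>AXR3-1 is induced by estradiol and has the g1090 promoter in its construct. It carries a fluorescent tag, called RFP in the sample labels and mCherry in the series' design. The labels name 1 line per construct, with no number of insertions or clones, and no line was analysed here without its inducer, so effects of the transgene and of the line cannot be told apart.

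Library totals were 17.45 to 23.88 M estimated reads. AXR3 (AT1G04250, IAA17) was the check of the lines, and its count adds the endogenous transcript and the construct's. It had 734, 939 and 1185 CPM (counts per 1 M reads) in XVE>>AXR3-1, against 175, 146 and 146 CPM in estradiol-treated Col-0. In HS::AXR3-1 it had 181, 298 and 861 CPM, against 93.5, 149 and 143 CPM in heat-shocked Col-0, a log2 change of 1.80 that missed the threshold (edgeR adjusted p = 0.199). The library labelled HS::AXR3-1 replicate 1 went against its heat label: 10 heat shock genes summed to 233 CPM there, against 4080.5 and 11661 CPM in the other HS::AXR3-1 libraries and 4478 to 7183 CPM in heat-shocked Col-0. The groups that were not heated had 52.6 to 239 CPM. Results of this line are therefore given with and without that library. Without it, the log2 change of AXR3 was 2.17 (SE 0.30) and passed the threshold (edgeR adjusted p = 0.0132). Markers of root hairs, root cap, endodermis, xylem, phloem, dividing cells and the stem cell niche were present in every library. The green tissue genes RBCS3B, LHCB1.1 and LHCB2.2 never passed 0.316 CPM. The other 2 of that list were present: RBCS1A reached 8.44 CPM, and LHCB1.3 reached 34.3 CPM with at least 137 reads in every library. These 2 genes summed to 19.2 to 24.0 CPM in XVE>>AXR3-1, against 9.28 to 17.3 CPM in estradiol-treated Col-0. In the other comparisons their sums overlapped. In whole tips, fewer cells of a type and less RNA per cell cannot be told apart.

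The 7 genes lie at 7 places on chromosomes 1, 3, 4 and 5, and 3 of them neighbour another Aux/IAA gene. IAA1 stands next to IAA14 on chromosome 4, IAA2 next to IAA7 on chromosome 3, and IAA3 next to IAA17 on chromosome 1. IAA1 and IAA2 have 2 exons, and the other members have 3. Stretches upstream of the start of the transcript that carried the reads were read from RefSeq's TAIR10.1. Of 48071 transcripts in the files whose locus is annotated there, 99.6% had a RefSeq transcript of the same length. The letters TGTCTC and TGTCGG are the classical and the high-affinity forms of the auxin response element, which ARFs bind. The lines below show the 250 bases before the start where either was found, with each match in capitals. Matches on the opposite strand read GAGACA or CCGACA. For IAA2 only 30 bases are shown, since its window lies in an exon of a longer annotated transcript. IAA1 is chr4:8360746-8360995 on the plus strand, IAA2 chr3:8181877-8181906 on the minus strand, IAA5 chr1:5366498-5366747 on the minus strand, IAA6 chr1:19673653-19673902 on the minus strand and IAA19 chr3:5263751-5264000 on the plus strand.
IAA1: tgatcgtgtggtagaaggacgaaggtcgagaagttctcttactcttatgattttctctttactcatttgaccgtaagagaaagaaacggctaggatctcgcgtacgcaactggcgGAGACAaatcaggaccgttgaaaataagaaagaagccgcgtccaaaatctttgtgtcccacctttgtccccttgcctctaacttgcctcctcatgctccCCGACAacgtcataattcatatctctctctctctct
IAA2: gcctctttcttgcctttcatgcttCCGACA
IAA5: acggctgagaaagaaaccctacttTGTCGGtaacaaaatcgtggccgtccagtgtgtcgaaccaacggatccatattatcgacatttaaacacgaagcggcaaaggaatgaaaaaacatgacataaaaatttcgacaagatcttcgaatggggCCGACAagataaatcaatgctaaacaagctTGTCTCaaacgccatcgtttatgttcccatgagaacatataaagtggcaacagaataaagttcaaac
IAA6: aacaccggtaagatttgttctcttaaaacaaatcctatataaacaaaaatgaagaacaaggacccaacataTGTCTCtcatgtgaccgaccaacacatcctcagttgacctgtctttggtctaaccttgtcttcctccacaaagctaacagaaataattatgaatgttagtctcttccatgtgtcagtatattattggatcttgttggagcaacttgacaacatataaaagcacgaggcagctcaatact
IAA19: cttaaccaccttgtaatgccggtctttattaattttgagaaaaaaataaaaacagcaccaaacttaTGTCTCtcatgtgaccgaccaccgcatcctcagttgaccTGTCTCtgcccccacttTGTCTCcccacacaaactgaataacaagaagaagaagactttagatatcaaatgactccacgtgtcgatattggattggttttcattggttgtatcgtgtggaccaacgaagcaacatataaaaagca

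TGTCTC occurred once in the windows of IAA1, IAA5 and IAA6 and 3 times in that of IAA19. TGTCGG occurred once in those of IAA1 and IAA2 and 2 times in that of IAA5. IAA3 and IAA4 had neither within 250 bases, which says only that these letters are not in that window. The window of IAA3 also overlaps an exon of another annotated IAA3 transcript. Over the windows of 27387 genes, taken from the outermost annotated start, 10.9% held TGTCTC and 4.2% held TGTCGG, on either strand. From that start 4 of the 7 members held TGTCTC and 2 held TGTCGG, since IAA2 then drops out. Among the 22 other Aux/IAA genes 5 and 4 did. Within 1000 bases of that start, TGTCTC occurred in all 7 members, in 10 of the 22 others and in 39.6% of genes. TGTCGG occurred there in 2 members, in 6 of the 22 others and in 14.6% of genes.

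IAA6 and IAA19 shared a run of 23 identical bases, tatgtctctcatgtgaccgacca, which begins 181 bases before the start of IAA6 and 186 before that of IAA19 and contains a TGTCTC in both. IAA1 and IAA2 shared tttgtccccttgcctct, 17 bases that begin 73 and 64 bases before their starts. The longest shared runs of the other 19 pairs of members had 7 to 12 bases.

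Per length of transcript, in the deposited TPM (transcripts per 1 M), the members covered a wide range of levels. With IAA, IAA2 stood highest at 267 ± 27.2 TPM (SD, n = 3), followed by IAA4 at 129 ± 25.7, IAA1 at 125 ± 11.3, IAA19 at 51.9 ± 11.98, IAA5 at 22.6 ± 3.78, IAA3 at 19.6 ± 4.53 and IAA6 at 5.18 ± 1.48 TPM. The libraries of IAA4 and IAA1 overlapped in that order, as did those of IAA5 and IAA3, and the other neighbours did not. With PEO-IAA, IAA4 (45.0 ± 15.1 TPM) and IAA2 (30.4 ± 10.02 TPM) overlapped, IAA19, IAA3 and IAA1 held 7.98, 7.19 and 4.66 TPM with overlapping neighbours, and IAA6 and IAA5 stayed below 0.54 TPM in every library. With mock, IAA2 stood at 120.5 ± 20.0 TPM, IAA4 at 68.1 ± 23.0, IAA1 at 33.2 ± 5.49, IAA19 at 14.8 ± 4.56, IAA3 at 8.98 ± 3.04, IAA6 at 1.39 ± 0.20 and IAA5 at 0.78 ± 0.64 TPM. There IAA19 overlapped with IAA3 and IAA6 with IAA5, so that IAA5 was beside IAA3 with IAA and beside IAA6 with PEO-IAA or mock.

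The order also differed between the AXR3-1 lines and their Col-0. In XVE>>AXR3-1 IAA4 stood above IAA2 without overlap, at 28.3 ± 6.83 against 15.6 ± 0.77 TPM, while in estradiol-treated Col-0 they overlapped at 54.5 ± 10.1 and 56.9 ± 8.63 TPM. IAA1 had 3.34 ± 0.88 TPM in that line, where its libraries overlapped with those of IAA19 (3.37 ± 1.75 TPM) and IAA3 (4.54 ± 4.49 TPM). In its Col-0 IAA1 had 18.4 ± 4.19 TPM and stood above both without overlap. In HS::AXR3-1 IAA4 had 54.8 ± 14.7 TPM and IAA2 38.5 ± 5.38 TPM, and heat-shocked Col-0 had the same 2 genes on top, at 68.4 ± 6.21 and 52.8 ± 10.7 TPM. Without the library labelled replicate 1, the HS::AXR3-1 means were 57.6 TPM for IAA4 and 36.8 TPM for IAA2.

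Summed over the 7 members, the level was 619.7 ± 80.3 TPM with IAA, 95.8 ± 32.0 with PEO-IAA and 248 ± 54.3 with mock. It was 123 ± 30.03 TPM in HS::AXR3-1, against 161 ± 24.9 in heat-shocked Col-0, and 55.5 ± 14.0 TPM in XVE>>AXR3-1, against 152 ± 25.5 in estradiol-treated Col-0. The share of this sum held by IAA4, the member with the smallest log2 change in the IAA comparison with mock, was 20.7% with IAA, 47.2% with PEO-IAA and 27.02% with mock. The share of IAA2 was 43.1% with IAA, 31.8% with PEO-IAA and 49.1% with mock, and that of IAA1 was 20.2, 5.06 and 13.6% in the same 3 groups. None of these shares overlapped between the libraries of any 2 of the 3 groups. Those of IAA3 and IAA6 overlapped between IAA and mock, and those of IAA5, IAA6 and IAA19 between PEO-IAA and mock. That of IAA19 overlapped between IAA and PEO-IAA as well. In XVE>>AXR3-1 IAA4 held 51.0% and IAA1 6.004%, against 35.7% and 12.1% in estradiol-treated Col-0, again without overlap. The share of IAA2 there, 29.2% against 37.6%, overlapped, as did those of IAA3, IAA5, IAA6 and IAA19. In HS::AXR3-1 all 7 shares overlapped with those of heat-shocked Col-0. Without the library labelled replicate 1 the summed level of the line was 123 TPM, from 93.1 to 153 TPM, and 5 of the 7 shares overlapped. The share of IAA1 was then 3.82 to 5.44% in the line, against 7.87 to 9.62% in Col-0, and that of IAA4 46.6 to 46.9%, against 39.8 to 45.1%. With 3 libraries against 3 an exact two-sided permutation test cannot go below 0.1, so these shares are given as a description.

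**Figure D1:**
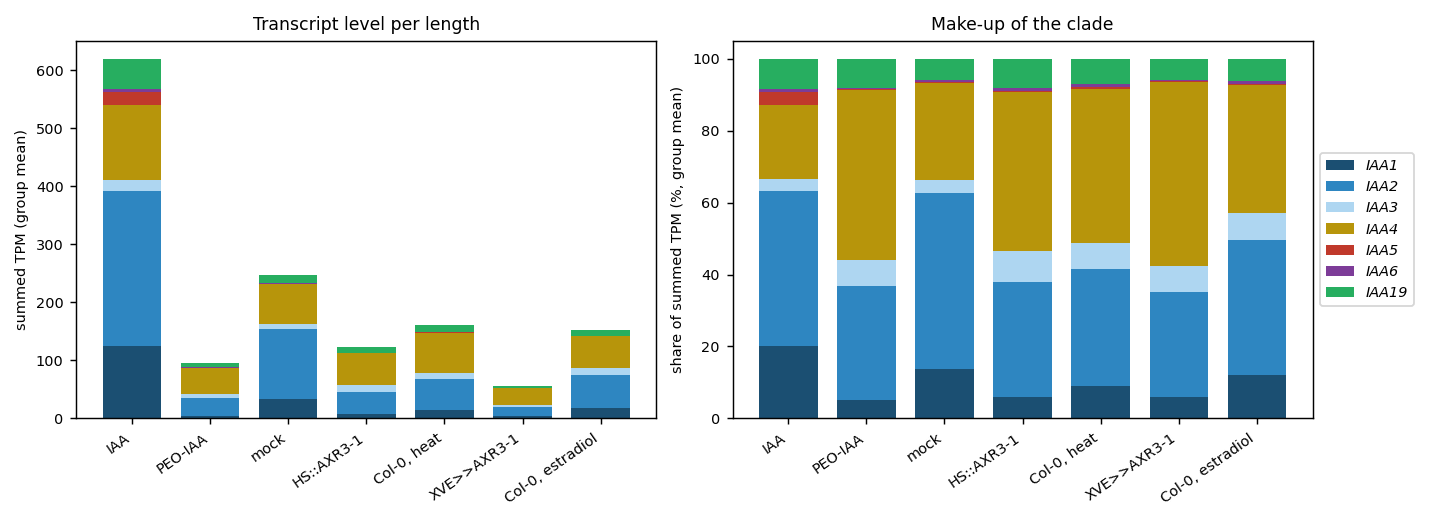
Left, mean TPM of each member stacked per group (3 libraries each), from 619.7 TPM in all with IAA down to 55.5 TPM in XVE>>AXR3-1. Right, the mean share of each member in the sum, in percent, with IAA4 at 20.7% with IAA, 47.2% with PEO-IAA and 51.0% in XVE>>AXR3-1.

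The first comparison asked how the members responded to 20 min of IAA. All 7 were higher in each IAA library than in any mock library, but the share of all genes that separate in this way was not counted. Of the 7, 3 passed the test, IAA1, IAA2 and IAA5 (edgeR quasi-likelihood, Benjamini-Hochberg over all genes, adjusted p under 0.05). By this test 0.146% of all genes tested were called higher. IAA1 had 79.3, 83.7 and 84.5 CPM with IAA, against 26.97, 23.7 and 21.1 CPM with mock, in order of replicate number. The IAA libraries lay close together and far above mock, a 3.45-fold rise (log2 change 1.79, SE 0.29, adjusted p = 0.0155).

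IAA2 had 206, 227 and 229.7 CPM with IAA, against 106, 104 and 114 CPM with mock. The groups were far apart, at 2.04-fold, a log2 change of 1.03 (SE 0.18, edgeR adjusted p = 0.0256). IAA5 had 7.77, 8.17 and 10.5 CPM with IAA, against 0.0484, 0.459 and 0.379 CPM with mock. In reads these were 160, 182 and 227 with IAA, against 1, 9 and 7 with mock, so IAA5 was nearly silent in mock tips and plainly present after 20 min. Its rise of 29.5-fold (log2 change 4.88, SE 0.94, edgeR adjusted p = 0.0444) had a 95% interval of 2.87 to 6.90 on the log2 scale.

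The other 4 members missed the threshold. IAA19 had 32.9, 50.4 and 47.0 CPM with IAA, against 9.59, 13.6 and 15.6 CPM with mock, a log2 change of 1.75 (SE 0.35, edgeR adjusted p = 0.0520). IAA4 had 83.7, 89.5 and 81.4 CPM with IAA, against 45.6, 48.9 and 51.1 CPM with mock, a log2 change of 0.81 (SE 0.16, adjusted p = 0.0556). Both lay just outside the threshold with no overlap between the groups. With the replicate number as a block both passed (edgeR adjusted p = 0.00346 for IAA19 and 0.0179 for IAA4). The count of members called was then 5, and that of all genes called rose from 33 to 133. IAA6 had 2.82, 2.65 and 4.54 CPM with IAA, against 1.26, 0.815 and 0.812 CPM with mock, a log2 change of 1.78 (SE 0.51, adjusted p = 0.362). IAA3 had 11.5, 14.9 and 14.9 CPM with IAA, against 5.52, 6.62 and 8.28 CPM with mock, a log2 change of 1.02 (SE 0.49, adjusted p = 1). IAA6 and IAA3 were the least read of these 4, with 57 and 397 reads over the 3 mock libraries.

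These calls rested on few libraries, while the sizes did not. Without IAA replicate 2 only IAA1 kept its call (edgeR adjusted p = 0.0486). Without any 1 of the other 5 libraries no member was called. In the full fit 6 of the 7 had an unadjusted edgeR p under 0.05, and DESeq2 called 6. Over all genes tested, 453 were higher and 219 lower at an unadjusted edgeR p under 0.05, and DESeq2 called 115. Over the 6 fits that leave out 1 library the log2 change of IAA1 stayed between 1.70 and 1.88. That of IAA2 stayed between 1.00 and 1.08 and that of IAA5 between 4.37 and 5.36. Among 11 genes of touch and wounding, none was called by edgeR in the same contrast, while 6 had an unadjusted p under 0.05 and DESeq2 called 2. They summed to 662 to 955 CPM with IAA, against 297 to 406 CPM with mock, with log2 changes of 0.31 to 3.02 for single genes. Their part in the result was not tested.

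**Figure D2:**
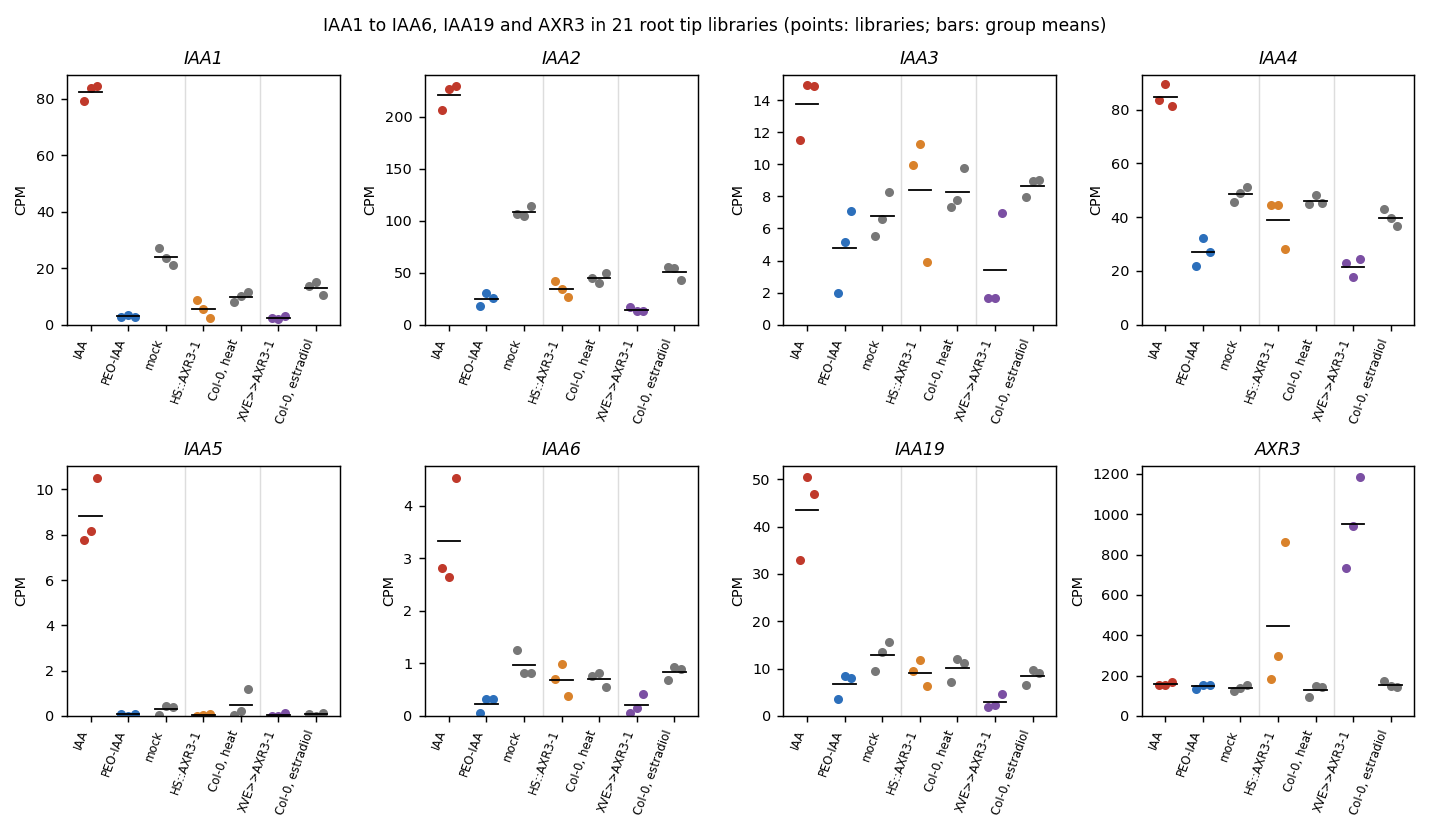
CPM of each member and of AXR3 in the 21 libraries, one panel per gene with its own linear axis; points are libraries and bars are means of 3. In every panel but that of AXR3 the 3 IAA libraries are the highest of the first experiment, and IAA5 is above 2 CPM only there.

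The second comparison set PEO-IAA, given at a micromolar rather than a nanomolar dose, against the same mock libraries. All 7 members had a log2 change below 0, and 2, IAA1 and IAA2, were called lower. Of all genes tested, 7 or 0.0353% were called lower. IAA1 had 2.82, 3.49 and 2.64 CPM with PEO-IAA, against 26.97, 23.7 and 21.1 CPM with mock. It fell by 3.00 on the log2 scale (SE 0.32, edgeR adjusted p = 1.80e-04), which is 7.99-fold lower. IAA2 had 17.61, 30.2 and 25.4 CPM with PEO-IAA, against 106, 104 and 114 CPM with mock, and fell by 2.15 on the log2 scale (SE 0.19, edgeR adjusted p = 2.78e-05), or 4.44-fold. For both genes the highest PEO-IAA library lay far below the lowest mock library, and both kept their call without any 1 of the 6 libraries.

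IAA4 had 21.8, 32.2 and 27.1 CPM with PEO-IAA, against 45.6, 48.9 and 51.1 CPM with mock. Its groups did not overlap, yet its log2 change of -0.84 (SE 0.17) missed the threshold (edgeR adjusted p = 0.153). IAA19 had 3.61, 8.38 and 8.07 CPM with PEO-IAA, against 9.59, 13.6 and 15.6 CPM with mock, a log2 change of -0.95 (SE 0.35, adjusted p = 1). IAA6 had 0.0495, 0.317 and 0.316 CPM with PEO-IAA, against 1.26, 0.815 and 0.812 CPM with mock, a log2 change of -2.05 (SE 0.58, adjusted p = 1). These groups did not overlap either, but IAA6 rests on 14 reads over the 3 PEO-IAA libraries, against 57 over the 3 mock libraries.

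Overlap between the groups was seen for IAA3 and IAA5, and the share of all genes that overlap was not counted. IAA3 had 1.98, 5.16 and 7.12 CPM with PEO-IAA, against 5.52, 6.62 and 8.28 CPM with mock, a log2 change of -0.52 with a 95% interval of -1.58 to 0.54. IAA5 had 2, 0 and 2 reads with PEO-IAA, against 1, 9 and 7 with mock. It was so low in mock tips that a fall could hardly show at this depth.

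IAA and PEO-IAA were also set directly against each other, at the same time but at different doses, and both sides share their libraries with the 2 comparisons above. Here 6 of the 7 members were called higher with IAA, where 0.5% of all genes tested were. The log2 change, IAA over PEO-IAA, was 4.78 for IAA1 (SE 0.34, edgeR adjusted p = 3.18e-07), 3.18 for IAA2 (SE 0.19, adjusted p = 9.63e-08) and 1.65 for IAA4 (SE 0.17, adjusted p = 3.55e-05). It was 2.70 for IAA19 (SE 0.36, adjusted p = 6.78e-04), 3.84 for IAA6 (SE 0.58, adjusted p = 0.00249) and 6.94 for IAA5 (SE 1.102, adjusted p = 0.00384). The 6 calls held without any 1 of the 6 libraries. IAA3 was the exception, at 1.54 (SE 0.50, adjusted p = 0.356), although its 3 IAA libraries lay above its 3 PEO-IAA libraries. In fold terms the member that differed least among those called was IAA4, at 3.14-fold, and the one that differed most was IAA5, at 122-fold on 569 reads with IAA and 4 with PEO-IAA. The touch and wounding genes summed to 662 to 955 CPM with IAA, against 329 to 533 CPM with PEO-IAA, with TCH3 called higher, and their part was not tested.

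The comparison of XVE>>AXR3-1 with Col-0, both with estradiol, asked what 2 h of induction of the stabilized repressor did to its relatives. All 7 log2 changes were below 0, and 4 members, IAA1, IAA2, IAA4 and IAA19, were called lower. Of all genes tested, 1.34% were called lower. IAA1 had 2.25, 1.99 and 2.94 CPM in XVE>>AXR3-1, against 13.7, 14.97 and 10.4 CPM in estradiol-treated Col-0, and fell by 2.44 on the log2 scale (SE 0.32, edgeR adjusted p = 4.34e-04), or 5.41-fold. IAA2 had 16.5, 13.3 and 13.0 CPM in the line, against 55.2, 54.2 and 42.7 CPM in Col-0, and fell by 1.83 on the log2 scale (SE 0.19, adjusted p = 8.56e-05), or 3.56-fold. In both genes the line's libraries were tightly grouped and well below Col-0.

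IAA4 had 22.8, 17.8 and 24.3 CPM in XVE>>AXR3-1, against 43.1, 39.6 and 36.8 CPM in estradiol-treated Col-0, and fell by 0.88 on the log2 scale (SE 0.17, edgeR adjusted p = 0.00591). IAA19 had 1.90, 2.39 and 4.60 CPM in the line, against 6.64, 9.79 and 9.10 CPM in Col-0, and fell by 1.51 on the log2 scale (SE 0.37, adjusted p = 0.0300). Replicate 3 of the line was the highest of the 3 but still below Col-0. IAA1, IAA2 and IAA4 kept their call without any 1 of the 6 libraries. IAA19 lost it without XVE>>AXR3-1 replicate 1 or 2 and without Col-0 replicate 2 or 3, with adjusted p up to 0.167.

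For the remaining 3 members, replicate 3 of XVE>>AXR3-1 stood apart. IAA3 had 1.66, 1.64 and 6.99 CPM in the line, against 7.98, 8.95 and 9.01 CPM in Col-0, a log2 change of -1.32 (SE 0.50, edgeR adjusted p = 0.258). IAA6 had 0.0593, 0.149 and 0.414 CPM in the line, against 0.694, 0.930 and 0.892 CPM in Col-0, a log2 change of -1.94 (SE 0.58, adjusted p = 0.1003). In both genes replicate 3 of the line was the highest of its group and did not reach Col-0. Without it IAA3 was called (log2 change -2.38, adjusted p = 0.00975), as was IAA6 (-2.90, adjusted p = 0.0277), and 6 members in all. With the replicate number as a block IAA6 was called (adjusted p = 0.0492), and 5 members in all. Over all genes 556 were called in the full fit, 528 without replicate 3 of the line and 1489 with the block. IAA5 had 3 reads over the 3 libraries of the line, against 5 over those of Col-0, a ratio of 0.67 with a 95% interval of 0.10 to 3.42 for counting error alone.

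Other genes moved with the line as well. The 6 root hair markers summed to 67.7 to 238 CPM in XVE>>AXR3-1, against 298 to 414 CPM in estradiol-treated Col-0, and 5 of 6 were called lower, RSL4 and RHD6, both regulators of root hair growth, with the smallest p. No defining root hair marker was at 0. The 11 touch and wounding genes summed to 219 to 248 CPM in the line, against 97.6 to 125 CPM in Col-0, with WRKY33 called higher. The root cap markers summed to 38.9 to 46.6 CPM in the line and 43.0 to 47.3 CPM in Col-0, with BRN1 called higher and BRN2 lower. The part of any of these in the members' result was not tested.

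**Figure D3:**
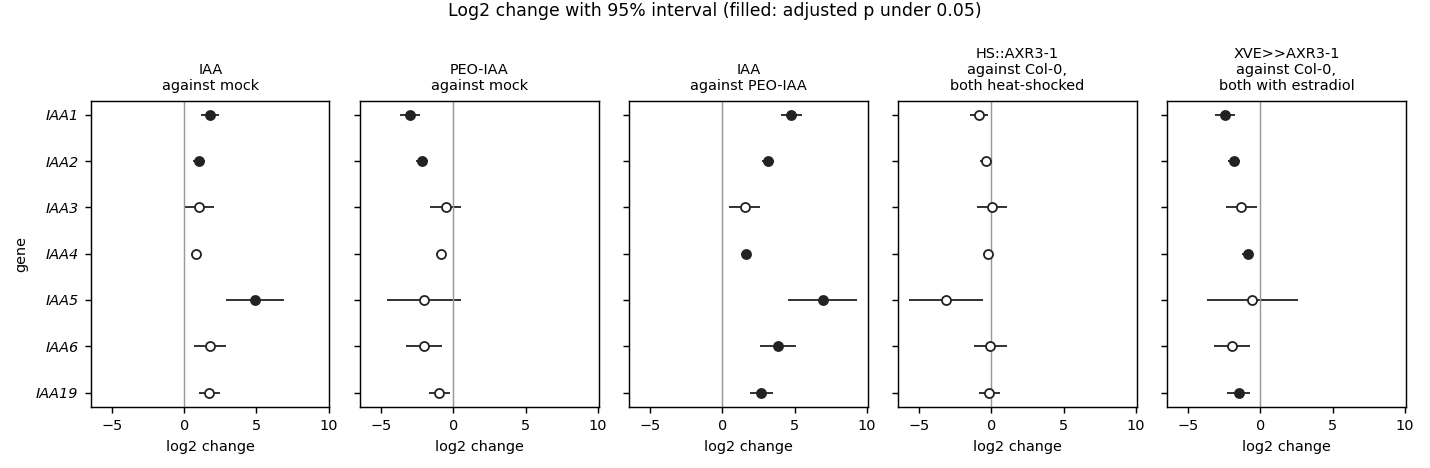
Log2 change of each member with its 95% interval in 5 comparisons, on one linear scale; filled points have an edgeR adjusted p under 0.05. IAA1 and IAA2 are filled in every panel but that of HS::AXR3-1, and IAA5 has the widest interval in each.

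In HS::AXR3-1 against heat-shocked Col-0 no member was called, by edgeR or by DESeq2, and 3 of 7 had an unadjusted edgeR p under 0.05, or 2 of 7 without the library labelled replicate 1. Of all genes tested, 0.0252% were called, none of them lower, with 320 lower at an unadjusted p under 0.05. IAA1 had 8.71, 5.45 and 2.37 CPM in HS::AXR3-1, against 7.88, 9.98 and 11.7 CPM in heat-shocked Col-0. The groups overlapped through the library labelled replicate 1, and the log2 change was -0.84 (SE 0.30, edgeR adjusted p = 0.940), or -1.34 (SE 0.28, adjusted p = 0.105) without that library. IAA2 had 41.7, 34.0 and 26.6 CPM in the line, against 44.5, 39.9 and 50.1 CPM in Col-0. These overlapped likewise, with a log2 change of -0.39 (SE 0.18, adjusted p = 1), or -0.57 (SE 0.19, adjusted p = 0.547) without replicate 1.

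IAA4 was the member without overlap, by a narrow margin: 44.6, 44.5 and 28.2 CPM in HS::AXR3-1, against 44.9, 48.2 and 45.3 CPM in heat-shocked Col-0. Its log2 change was -0.24 (SE 0.16, edgeR adjusted p = 1), or -0.35 without replicate 1. IAA3 had 9.96, 11.3 and 3.91 CPM in the line, against 7.32, 7.79 and 9.79 CPM in Col-0, with log2 changes of 0.02 and, without replicate 1, -0.13. IAA19 had 9.45, 11.8 and 6.23 CPM in the line, against 7.18, 12.01 and 11.2 CPM in Col-0, with log2 changes of -0.15 and, without replicate 1, -0.18. Both genes were spread as widely within the groups as between them. IAA6 had 0.695, 0.991 and 0.372 CPM in the line, against 0.755, 0.818 and 0.560 CPM in Col-0, with log2 changes of -0.06 and -0.07. IAA5 had 3 reads over the 3 libraries of the line, against 27 over those of Col-0, of which 21 came from replicate 3. That is a ratio of 0.11 with a 95% interval of 0.021 to 0.36 for counting error alone, and the fitted log2 change of -3.13 (SE 1.19, edgeR adjusted p = 1) became -2.59 without HS::AXR3-1 replicate 1 and -1.38 without Col-0 replicate 3.

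Within HS::AXR3-1 the 3 libraries differed in order. Replicate 3, with the most AXR3 (861 CPM), was the lowest of the 3 in 6 of the 7 members, the exception being IAA5. It also had the highest heat shock sum of all 21 libraries (11661 CPM) and the lowest sum of 5 cell division markers, at 55.8 CPM, against 133 and 138 CPM in the other HS::AXR3-1 libraries and 79.4 to 135 CPM in heat-shocked Col-0. The 6 root hair markers summed to 159 to 326 CPM in HS::AXR3-1, against 336 to 499.9 CPM in heat-shocked Col-0. The part of these in the members' levels was not tested. Without replicate 3, in a fit that keeps the library labelled replicate 1, the log2 change was -0.47 for IAA1 and -0.24 for IAA2. Both were the nearest to 0 among the fits that leave out 1 library.

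**Figure D4:**
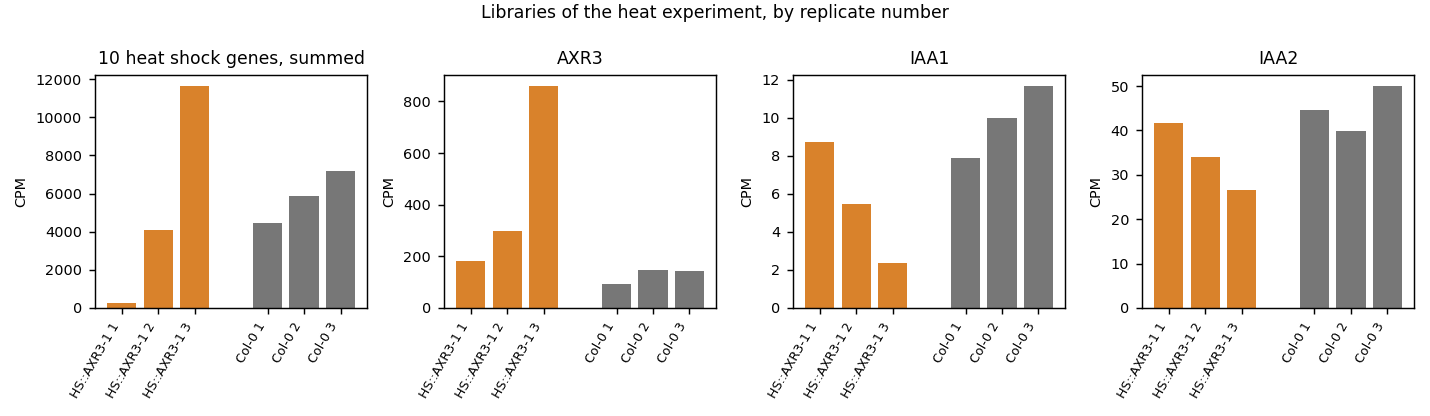
The 6 libraries of the heat experiment by replicate number, bars from 0 in CPM: the sum of 10 heat shock genes, AXR3, IAA1 and IAA2. The library labelled HS::AXR3-1 replicate 1 has 233 CPM in the first panel, where the other 5 have 4080.5 CPM or more, and replicate 3 has the most AXR3 and the least IAA1 and IAA2 of its group.

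The effects themselves were then set against each other. The effect of XVE>>AXR3-1 on its Col-0 minus that of HS::AXR3-1 on its Col-0 was called for none of the 7 by edgeR, while 5 of 7 had an unadjusted p under 0.05 and DESeq2 called 1, IAA2. Of all genes tested, edgeR called 0.0252% and DESeq2 called 56. At an unadjusted edgeR p under 0.05, 317 genes were higher and 393 lower. The difference was -1.44 for IAA2 (SE 0.26, edgeR adjusted p = 0.0587) and -1.60 for IAA1 (SE 0.43, adjusted p = 0.448), both on the log2 scale. It was -1.26 for IAA2 (adjusted p = 0.141) and -1.09 for IAA1 without the library labelled HS::AXR3-1 replicate 1. Without HS::AXR3-1 replicate 3 both were called, IAA1 at -1.96 (edgeR adjusted p = 0.0148) and IAA2 at -1.59 (edgeR adjusted p = 0.0163). That fit drops the HS::AXR3-1 library with the most AXR3 (861 CPM). It keeps the library labelled replicate 1, with 181 CPM of AXR3 and 233 CPM over the 10 heat shock genes. With the replicate number as a block IAA2 was called (adjusted p = 0.0289). The inducers, times and experiments of the 2 lines differ and cannot be told apart from the constructs.

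The effect of XVE>>AXR3-1 minus that of PEO-IAA, which has no library in common with it, was called for none of the 7 by edgeR or DESeq2, and none had an unadjusted p under 0.05. Calls were made for 0.0707% of all genes tested. The difference was 0.56 for IAA1 with a 95% interval of -0.37 to 1.498, 0.32 for IAA2 (-0.23 to 0.87) and -0.04 for IAA4 (-0.54 to 0.46). For IAA19 it was -0.56 (-1.63 to 0.51), for IAA3 -0.80 (-2.30 to 0.70), for IAA6 0.11 (-1.69 to 1.91) and for IAA5 1.49 (-2.88 to 5.86). For IAA4 and IAA2 these intervals leave room for differences of less than 2-fold, for IAA6 and IAA5 for several-fold ones, and a p above the threshold does not show that the effects were alike.

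The effect of HS::AXR3-1 minus that of PEO-IAA was called for 1 of the 7, IAA2, at 1.76 on the log2 scale (SE 0.26, edgeR adjusted p = 0.0342). Calls of higher were made for 0.0101% of all genes tested. IAA2 differed by -0.39 between HS::AXR3-1 and heat-shocked Col-0 and by -2.15 between PEO-IAA and mock. Without the library labelled HS::AXR3-1 replicate 1 the difference was 1.58 (adjusted p = 0.137), and with the replicate number as a block 1.76 (adjusted p = 0.0737). It kept its call in 3 of the 12 fits that leave out 1 library, those without PEO-IAA replicate 2, mock replicate 2 and HS::AXR3-1 replicate 3, with adjusted p between 0.0067 and 0.190 over the 12. IAA1 showed a difference of 2.16 (SE 0.43, edgeR adjusted p = 0.347), or 1.66 without the library labelled HS::AXR3-1 replicate 1. It was called at 2.52 (edgeR adjusted p = 0.00386) without HS::AXR3-1 replicate 3. That fit keeps the library labelled replicate 1 and drops the one with the most AXR3 (861 CPM).

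Beside the 7 members, 20 of the 22 other Aux/IAA genes were tested, AXR3 among them. With IAA against mock the median log2 change was 1.75 over the members, 0.21 over the other 20 and -0.004 over all genes, and IAA11 was the one called of the 20, at 1.22 (edgeR adjusted p = 0.0285). With PEO-IAA against mock the 3 medians were -2.05, -0.17 and 0.004. With IAA against PEO-IAA they were 3.18, 0.42 and -0.002, and IAA11, IAA30 and, named after its value was seen, IAA13 were called higher among the 20. In HS::AXR3-1 against its Col-0 they were -0.24, -0.17 and 0.016. Without the library labelled HS::AXR3-1 replicate 1 they were -0.35, -0.36 (over 21 other Aux/IAA genes then tested) and 0.0055. In XVE>>AXR3-1 against its Col-0 they were -1.51, -0.45 and -0.015. There 8 of the 20 were called lower, with IAA16 first by p (log2 change -2.43, adjusted p = 9.57e-04), and AXR3 was called higher (2.61, adjusted p = 9.71e-04). These counts and medians describe the lists and were not tested against each other.

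**Figure D5:**
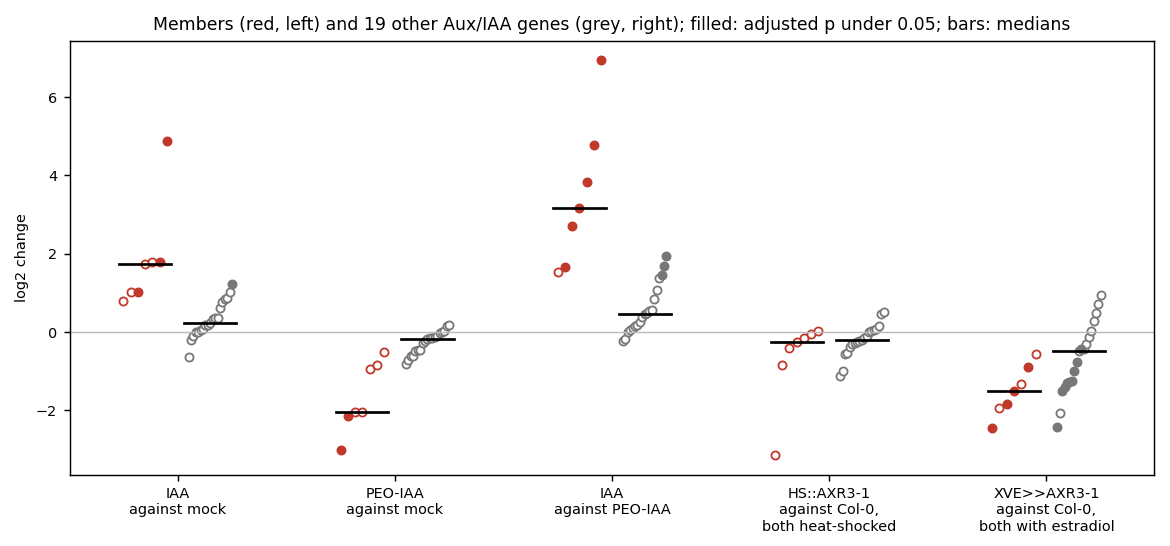
Log2 change of the 7 members (left of each pair, red) and of the 19 other tested Aux/IAA genes without AXR3 (right, grey) in 5 comparisons; filled points have an edgeR adjusted p under 0.05 and bars are medians. With IAA against mock the medians are 1.75 and 0.24, and in XVE>>AXR3-1 against its Col-0 -1.51 and -0.47.

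The rest of the pathway was read in the same comparisons. Of the 6 TIR1/AFB receptor genes, AFB1 was called, lower in XVE>>AXR3-1 (log2 change -0.57, edgeR adjusted p = 0.0300). Of the 5 activating ARFs, ARF19, which acts in auxin-induced transcription in roots, was called higher with IAA against mock (1.09, adjusted p = 0.0444) and against PEO-IAA (1.74, adjusted p = 2.72e-04). The log2 changes of the 5 TOPLESS co-repressor genes lay between -0.15 and 0.47 over the 5 comparisons. GH3 enzymes join IAA to amino acids and so remove it, and 5 of 6 were tested. With IAA against mock 2 were called higher, GH3.1 (2.51, adjusted p = 0.00308) and GH3.5 (1.58, adjusted p = 0.0201). Against PEO-IAA 4 were, among them GH3.1 (4.13, adjusted p = 5.81e-06) and GH3.5 (2.31, adjusted p = 1.64e-04). In XVE>>AXR3-1, GH3.5 was called lower (-1.40, adjusted p = 0.00682).

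Across the 21 libraries the members followed each other to different degrees. Pearson's r was taken of log2 CPM centred within each experiment, over 21 libraries that share their depth and treatments within an experiment, and is given as a description. It was highest for IAA1 with IAA2 (0.978) and lowest for IAA3 with IAA5 (0.572). IAA6 with IAA19, the pair with the 23-base run, had 0.944, and IAA4 had 0.969 with IAA1 and 0.962 with IAA2. Outside the clade, among 19802 other genes tested, AUF1, an auxin-induced F-box gene, had the highest r with IAA1 (0.983), IAA4 (0.973), IAA2 (0.964) and IAA6 (0.932). Next to it came AT5G62280 for IAA1 (0.977), AT2G22460 for IAA2 (0.936), AT1G60010 for IAA4 (0.951) and UCN, an AGC kinase gene, for IAA6 (0.923). GH3.5 came first for IAA19 (0.969), UCNL, a relative of UCN, for IAA3 (0.909), followed by IAA12 (0.905), and the zinc finger gene ZFP2 for IAA5 (0.923), followed by SAUR24 (0.905) and GH3.1 (0.896). The median r over all genes lay between -0.01 and 0.01 for each member.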

How the data were processed

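Root tip RNA was measured in 21 libraries, 7 groups of 3. Per the submitters' processing notes, reads were quantified with Salmon 1.3.0 and TAIR10 was the build. Per the file headers, the deposited values are estimated counts and TPM for each of 48268 transcripts. The sources used here do not give trimming or other steps. Estimated counts were summed per locus and rounded, and TPM was summed as deposited. Library totals were 17.45 to 23.88 M.

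edgeR 4.0.16 (R 4.3.3) fitted 1 quasi-likelihood model to all 21 libraries (TMM scaling, low-count filter, 19809 genes, 14 residual degrees of freedom), with Benjamini-Hochberg adjustment over all genes and calls at an adjusted p under 0.05. CPM used TMM-scaled library sizes, with a prior count of 2 for log2 CPM in the correlations. Intervals are 95%. The replicates are called biological by the labels, with no origin per library given. The p-values measure the spread between them, estimated jointly over the 7 groups. In the main fit that estimate includes the library labelled HS::AXR3-1 replicate 1, also for comparisons without this line. Intervals for reads cover counting error only.

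Same-numbered libraries deviated together within the chemical experiment (correlations from 0.523 to 0.784) and the estradiol experiment (0.488 to 0.698), above 0.1 in every pair, and less so with heat (0.0871 to 0.447). The pairing thus comes from the data, and the block was an alternative, beside DESeq2 1.42.0, other scaling, no filter, a robust spread, each experiment alone and leaving out each library. Genes named were the members, AXR3, up to 2 called per list and comparison, and the 3 most alike per member. The members and lists were chosen with earlier results of these data known. RefSeq's TAIR10.1 gave positions and sequences.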

Additional observations from a re-analysis of the deposited data

Results flagged for a closer look

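For IAA2 the effect of HS::AXR3-1 against heat-shocked Col-0 differed from the effect of PEO-IAA against mock by 1.76 on the log2 scale (SE 0.26, edgeR adjusted p = 0.0342), a test of the difference between 2 effects measured in different experiments. The PEO-IAA libraries of IAA2 were all below their mock libraries. Those of HS::AXR3-1 and heat-shocked Col-0 overlapped, through the library labelled HS::AXR3-1 replicate 1. At 34.0 and 26.6 CPM, the other HS::AXR3-1 libraries lay below heat-shocked Col-0 (44.5, 39.9 and 50.1 CPM). Without the library labelled HS::AXR3-1 replicate 1 the difference was 1.58 (adjusted p = 0.137). Groups of 3 are too small for a search for single outlying libraries.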

How the results depend on the processing

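The members called with IAA against mock numbered 3, and 6 with DESeq2, 5 with median-of-ratios scaling, 5 with the replicate number as a block, 2 in the chemical experiment alone, where IAA2 lost its call (adjusted p = 0.0864), and 0 to 1 without 1 library. All genes called numbered 33, and in the same order of settings 115, 42, 133, 11 and 6 to 16. For the effect of XVE>>AXR3-1 minus that of HS::AXR3-1 the 0 became 1 with DESeq2, 1 with the block and 0 to 2 without 1 library. Over all genes the 5 called became 56, 51 and 0 to 36. For the effect of HS::AXR3-1 minus that of PEO-IAA the 1 became 2 with DESeq2, 0 with the block and 0 to 2 without 1 library. Over all genes the 2 called became 7, 0 and 0 to 4. The block changed no other call of a member beyond those given with the results. The counts for PEO-IAA against mock (2 to 3), IAA against PEO-IAA (6), HS::AXR3-1 (0) and XVE>>AXR3-1 (3 to 6) stayed within 1.5 times, and the cause of the changes was not tested.

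Signs turned only for small or thinly read changes. With the block IAA3 in HS::AXR3-1 was at -0.0706. Without 1 library, log2 changes in HS::AXR3-1 spanned -0.26 to 0.36 for IAA3, -0.42 to 0.24 for IAA6 and -0.37 to 0.0662 for IAA19, and IAA5 in XVE>>AXR3-1 spanned -3.77 to 0.10. For the effect of XVE>>AXR3-1 minus that of HS::AXR3-1, IAA5 spanned -0.64 to 3.399. Minus that of PEO-IAA, IAA4 spanned -0.17 to 0.12, IAA5 -1.72 to 2.15 and IAA6 -0.85 to 0.51. For HS::AXR3-1 minus PEO-IAA, IAA5 spanned -1.91 to 0.67. IAA19 in XVE>>AXR3-1 missed the threshold in the estradiol experiment alone (adjusted p = 0.0700). Each experiment alone was not run for differences between experiments. Depth limits IAA5 and IAA6, which had 27 and 57 reads or fewer in any group outside IAA.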

Other observations

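Treatment and experiment cannot be told apart between the Col-0 groups of the 3 experiments, and their levels were not tested against each other. Summed over the 7 genes they held 161 ± 24.9 TPM with heat shock, 152 ± 25.5 TPM with estradiol and 248 ± 54.3 TPM with mock (SD, n = 3 each), and the libraries with heat shock and with estradiol overlapped. IAA1 had 7.88 to 11.7 CPM with heat shock, 10.4 to 14.97 CPM with estradiol and 21.1 to 26.97 CPM with mock. IAA5 had 21 reads in heat-shocked Col-0 replicate 3, more than in any other library outside the IAA group.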
